A study of Mus musculus with 8 samples.

Results

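The regions described here are stretches of open chromatin that were listed in both Fn14 knockout (Fn14 KO) brain section libraries and in neither library of wild-type (Fn14 WT) littermates. They were chosen by the authors' own peak values. The peaks of the 4 section libraries were merged wherever they overlapped by at least 1 bp, which gave 329842 regions. A region was kept if the −log10 p of its strongest peak was at least 8 in both Fn14 KO libraries and if no peak of either Fn14 WT library touched it. This left 1235 regions, called gained regions below, out of 81497 regions with a −log10 p of at least 8 in both Fn14 KO libraries. Gained is a word for this pattern in 4 peak lists. The number of reads behind each peak is unknown, because only peak lists were used.

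The sections came from Fn14 KO mice and Fn14 WT littermates on a C57Bl/6J background, aged P27 and untreated. The frozen brains were cut coronally, so that each sample contained hippocampus, cortex and the dLGN, the dorsal part of the lateral geniculate nucleus, through which the thalamus passes retinal input to the cortex. Each genotype had 2 libraries. A separate experiment used microdissected dLGN of C57Bl/6J mice at P32, fed from P20 with chow containing PLX5562 to deplete microglia, or with matching control chow, again with 2 libraries each. Each of the 8 libraries was made from an aliquot of 50000 nuclei with the Nextera transposase kit. Sections differ from the dLGN samples in tissue, age and experiment, and the sections mix many cell types. The labels do not say how the Fn14 allele was made or whether animals were pooled, so the spread between libraries may be partly technical. In bulk tissue, fewer cells of a type with an open site and less opening per cell cannot be told apart.

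ATAC-seq uses a transposase that cuts and tags DNA where it is not wrapped in nucleosomes, so that peaks of tagged fragments mark promoters, enhancers and other accessible sites. Fn14, encoded by Tnfrsf12a, is a small receptor of the TNF receptor superfamily. Its ligand is the cytokine TWEAK, encoded by Tnfsf12. Binding recruits TRAF adaptor proteins and releases NF-kB transcription factors, through the canonical route that is held back by the inhibitor IkBα (Nfkbia) and through the alternative route of the kinase NIK (Map3k14), whose level TRAF3 keeps low. In the developing visual thalamus, microglia supply TWEAK to Fn14 on neurons, where the pair takes part in the remodelling of synapses.

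At the gene of the deleted receptor the lists followed their genotype labels. The region at the start of Tnfrsf12a, at chr17:23677379-23677642 (mm10), had no peak in either Fn14 KO library, against −log10 p values of 13.6 and 8.02 in the Fn14 WT libraries. In the dLGN it reached 10.0 and 19.4 on PLX chow, and 24.5 and 25.3 on control chow. The lists themselves differed between genotypes. The Fn14 KO lists held 299822 and 299816 peaks, just under the 300000 cap of the authors' pipeline, against 256323 and 261201 in Fn14 WT. Regions at −log10 p of at least 8 numbered 111646 and 102031 in Fn14 KO, against 88251 and 79173 in Fn14 WT. The peaks of Fn14 KO began at −log10 p of 2.85 and 2.05, those of Fn14 WT at 2.0005 in both libraries. Among section libraries a given −log10 p therefore stood at a different rank: the value at rank 60000 was 17.4 and 15.4 in Fn14 KO, and 12.7 and 11.2 in Fn14 WT. The part these differences play in the number of gained regions was not tested directly. Counts with the limit at matched ranks, and with lists of equal length, are given below.

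Of the 1235 gained regions, 14 overlapped an annotated promoter window, taken here as the 250 bases before to 50 bases after a RefSeq transcript start. Sequences of 6 are shown, chosen after their values were seen from named genes with differing states in the dLGN. They are not a sample of the 14, and the windows left out reach lower GC content (36.7% to 62.7%). They are from RefSeq (GRCm38.p6, the assembly also called mm10) and read 5′ to 3′ on the gene's strand, limited to the bases the gained region covered. Capitals mark the GC box (GGGCGG, bound by Sp factors) and the CCAAT box (CCAAT), on either strand. Neurod2 encodes a basic helix-loop-helix factor of excitatory cortical neurons, and its covered bases are chr11:98329596-98329895 on the minus strand.
Neurod2: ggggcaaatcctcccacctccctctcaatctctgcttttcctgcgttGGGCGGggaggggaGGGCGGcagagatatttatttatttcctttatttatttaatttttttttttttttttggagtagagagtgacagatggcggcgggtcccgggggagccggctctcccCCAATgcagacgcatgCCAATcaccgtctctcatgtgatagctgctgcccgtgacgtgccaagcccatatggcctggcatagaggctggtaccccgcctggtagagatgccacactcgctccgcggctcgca
Wnt9b encodes a secreted Wnt ligand, covered at chr11:103749772-103749956, minus strand.
Wnt9b: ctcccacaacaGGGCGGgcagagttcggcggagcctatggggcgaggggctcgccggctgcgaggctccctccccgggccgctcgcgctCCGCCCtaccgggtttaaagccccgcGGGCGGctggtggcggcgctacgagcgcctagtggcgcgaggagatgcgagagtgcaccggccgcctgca
Slc10a4 encodes a protein of synaptic vesicles in monoaminergic and cholinergic neurons, covered at chr5:73006737-73006953, plus strand.
Slc10a4: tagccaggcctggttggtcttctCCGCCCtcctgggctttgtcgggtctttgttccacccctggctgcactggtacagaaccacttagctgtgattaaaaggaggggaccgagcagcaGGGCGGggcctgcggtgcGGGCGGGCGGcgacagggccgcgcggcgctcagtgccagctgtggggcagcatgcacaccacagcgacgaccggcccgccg
Cfap77 encodes a protein of cilia and flagella, covered at chr2:29055017-29055316, minus strand.
Cfap77: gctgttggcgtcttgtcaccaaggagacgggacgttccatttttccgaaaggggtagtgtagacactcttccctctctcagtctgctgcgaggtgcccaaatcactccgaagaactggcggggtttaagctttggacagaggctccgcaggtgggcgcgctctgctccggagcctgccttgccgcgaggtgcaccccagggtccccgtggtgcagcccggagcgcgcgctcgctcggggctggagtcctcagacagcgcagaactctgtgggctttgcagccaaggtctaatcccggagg
Prss41 encodes a serine protease and is the gained region nearest to Tnfrsf12a, covered at chr17:23844107-23844406, minus strand.
Prss41: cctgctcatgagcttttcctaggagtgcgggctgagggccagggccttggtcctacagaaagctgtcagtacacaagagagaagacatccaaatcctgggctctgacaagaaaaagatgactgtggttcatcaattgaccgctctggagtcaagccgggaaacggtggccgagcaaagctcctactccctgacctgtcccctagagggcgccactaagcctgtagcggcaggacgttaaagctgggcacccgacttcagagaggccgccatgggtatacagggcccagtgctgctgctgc
Fibcd1 encodes a membrane receptor that binds acetylated sugars, covered at chr2:31845956-31846255, minus strand.
Fibcd1: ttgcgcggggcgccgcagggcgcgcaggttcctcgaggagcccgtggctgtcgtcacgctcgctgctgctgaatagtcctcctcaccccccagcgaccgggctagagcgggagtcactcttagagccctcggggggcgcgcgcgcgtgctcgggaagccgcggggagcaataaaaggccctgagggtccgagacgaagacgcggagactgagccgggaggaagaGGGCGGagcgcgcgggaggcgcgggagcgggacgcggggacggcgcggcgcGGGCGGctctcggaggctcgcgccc

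These promoters ranged widely in base composition. GC content over the covered bases was 55.3% at Neurod2, 74.6% at Wnt9b, 68.2% at Slc10a4, 63% at Cfap77, 57.3% at Prss41 and 74.3% at Fibcd1. The covered bases held 16 CpG dinucleotides at Neurod2, 25 at Wnt9b, 18 at Slc10a4, 22 at Cfap77, 10 at Prss41 and 46 at Fibcd1. Over the 14 windows the median was 56.3% GC with 9 CpG. It was 61.3% and 21 CpG in the 15169 windows under the 81497 regions, and 52.7% and 7 CpG in all 32851 windows. A GC box stood in 6 of the 14 windows (42.9%), against 62.5% of the 15169 and 35.7% of all windows. A CCAAT box stood in 4 windows (28.6%), against 37.4% of the 15169 and 37.4% of all windows. No window under a gained region held the AP-1 letters TGANTCA (4.77% of the 15169 and 7.81% of all windows did) or the NF-kB letters GGANTTTCC (1.13% of the 15169 and 1.25% of all windows did). Both strands were searched, and a GC box and a CCAAT box can share letters. A match is a description of the letters and not of binding.

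The 6 promoters shown were picked for differing states in the dLGN, which the rule itself did not use, so their differences there are description. The Neurod2 promoter region had −log10 p values of 15.4 and 9.35 in Fn14 KO and no peak in any dLGN library. The nearest Fn14 WT peak was 905 bp away. The Wnt9b region had 11.6 and 11.4 in Fn14 KO, and 3.46 and 9.80 on PLX chow with 17.9 and 5.92 on control chow. The Slc10a4 region had 9.64 and 11.4 in Fn14 KO, and 19.5 and 13.9 on PLX chow with 17.2 and 4.75 on control chow. Cfap77 had 17.2 and 14.9 in Fn14 KO, and 17.1 and 11.8 on PLX chow with 14.6 and 15.9 on control chow. Wnt9b, Slc10a4 and Cfap77 thus had peaks in all 4 dLGN libraries and were missing only from Fn14 WT sections. Fibcd1 had 14.5 and 9.25 in Fn14 KO, and in the dLGN 4.13 in 1 PLX library and 5.63 in 1 control library. Prss41, at 14.4 and 11.4 in Fn14 KO, had 3.83 in 1 control library and nothing in the other dLGN libraries. The remaining promoters belong to Add3, Arl6ip4 and Thsd4 and to 5 loci known by provisional names, LOC115489511, Gm51469, 6330420H09Rik, 1700047F07Rik and Gm35779.

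The gained regions were weak and narrow beside all regions that passed the limit in both Fn14 KO libraries, as were the sets that the same rule gives for other pairs of libraries. Their −log10 p was used to choose them, and a rule that allows no Fn14 WT peak also keeps such peaks from widening a region, so both are given as description. The median was 11.6 in Fn14 KO 1 (range 8.002 to 42.9) and 10.5 in Fn14 KO 2 (8.004 to 35.8), against 26.3 and 22.6 over all 81497. The authors' fold enrichment of the same peaks had medians of 3.75 and 3.58, against 5.44 and 5.10. Gained regions had a median width of 333 bp (150 to 1373), against 679 bp over the 81497 and 488 bp among those whose lower Fn14 KO value was 8 to 10. The sets of the other 5 pairs, described below, had median widths of 268 to 367 bp. Ranked within their own library, they had a median rank of 82127 in Fn14 KO 1 and of 81121 in Fn14 KO 2. The best placed stood at ranks 24773 and 25563, and 104 (8.42%) and 58 (4.70%) were among the first 50000. The −log10 p came in steps: 61 gained regions shared the value 8.41 in Fn14 KO 1, and 100 shared 8.26 in Fn14 KO 2. The first Fn14 KO library had the higher value at 799 of the regions, and the second at 435.

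The share of gained regions was lower in stronger classes, a property of the rule that all 6 pairs of libraries showed between the weakest and the strongest class. Of regions with a lower Fn14 KO value of 8 to 10, 697 of 11708 (5.95%) had no Fn14 WT peak. The share was 326 of 8736 (3.73%) at 10 to 12, 168 of 12718 (1.32%) at 12 to 16, and 44 of 48335 (0.0910%) at 16 or more. Just inside the limit were regions in Trib2, a pseudokinase (8.002 and 9.66), Nploc4, a cofactor of the p97 segregase (8.004 and 8.86), and Pex5l, a regulator of HCN channels (8.004 and 10.4). Just outside lay regions at Atg2a, an autophagy lipid transfer protein (7.998 and 9.92), Gse1 (7.995 and 10.0) and Anp32a, a nuclear phosphatase inhibitor (16.5 and 7.996). Nothing in these values separates the inner 3 from the outer 3 beyond the limit itself. Absence from Fn14 WT is likewise absence from a list: of the 81497 regions, 75610 (92.8%) had peaks in both Fn14 WT libraries, 2475 (3.04%) only in Fn14 WT 1 and 2177 (2.67%) only in Fn14 WT 2. The nearest Fn14 WT peak lay a median of 3005 bp from a gained region (quartiles 1100 and 7168 bp). For 165 of them (13.4%) it lay within 500 bp, so that they flank a site also open in Fn14 WT, and for 209 (16.9%) over 10 kb away.

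To see how often 2 of these 4 libraries share regions that the others lack, the same rule was applied to every way of pairing them. The Fn14 KO pair gave 1235 of 81497 regions (1.52%), and the Fn14 WT pair 96 of 63771 (0.151%), a ratio of 12.9. Splitting the libraries by replicate number, Fn14 KO 1 with Fn14 WT 1 gave 495 of 74109 (0.668%), and Fn14 KO 2 with Fn14 WT 2 gave 357 of 67638 (0.528%). In the remaining split, Fn14 KO 1 with Fn14 WT 2 gave 84 of 66878 (0.126%), and Fn14 KO 2 with Fn14 WT 1 gave 119 of 70747 (0.168%). The genotype split thus held 1331 regions in all, against 852 and 203 for the other splits. The Fn14 KO count exceeded the mean of the 4 mixed pairs by 971. With 4 libraries there are 3 splits, so an exact test cannot go below p = 0.333, and none was made on these counts. The mixed pairs, which share no genotype, thus held 84 to 495 such regions. At a lower value of 16 or more, the Fn14 KO pair kept 44 regions, against 1 for the Fn14 WT pair, 10 and 5 for the pairs by number, and 3 and 26 for Fn14 KO 1 with Fn14 WT 2 and Fn14 KO 2 with Fn14 WT 1. Of the 119 regions of Fn14 KO 2 with Fn14 WT 1, 33 lay on chromosome X and 0 on chromosome Y. Of the 84 of Fn14 KO 1 with Fn14 WT 2, 0 lay on X and 6 on Y. Of the 1235 gained regions, 8 lay on X and 0 on Y. The part of the sex chromosomes in the counts of the mixed pairs was not tested.

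**Figure D1:**
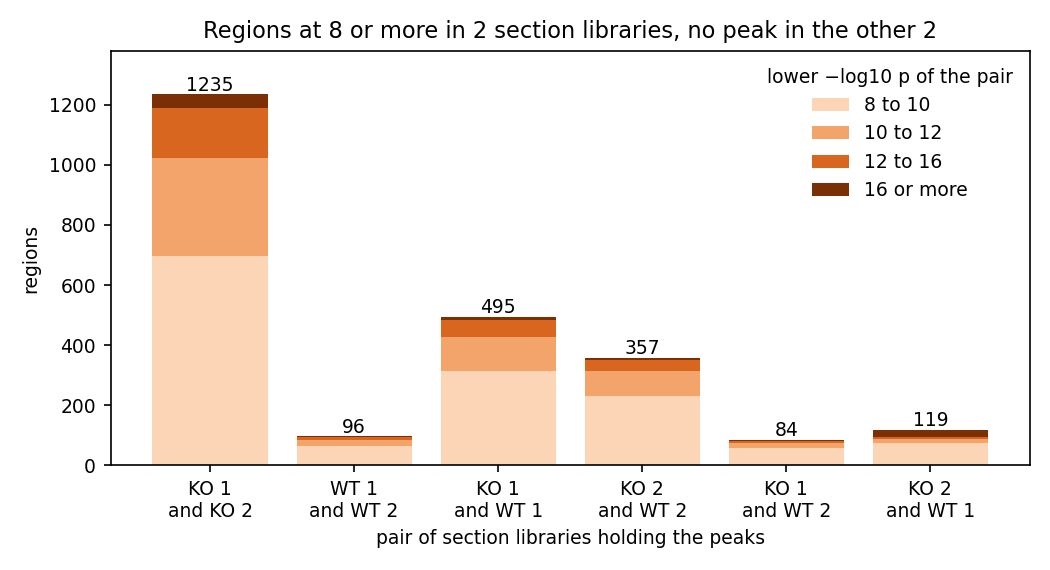
Number of regions (vertical axis, from 0) that the same rule gives for each of the 6 pairs of section libraries (horizontal axis), each required at −log10 p of at least 8 in both libraries of the pair and absent from the other 2, with colours for the class of the lower −log10 p. The Fn14 KO pair holds 1235 regions, the Fn14 WT pair 96, and the mixed pairs 84 to 495.

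Counts at matched ranks moved with the depth of the ranking. With each list limited to its 100000 strongest regions, the Fn14 KO pair still had the highest count, 967, against 282 for the Fn14 WT pair and 624 for the highest of the mixed pairs. With 60000 regions per list it had 48, and the highest of the mixed pairs had 40. At a limit of 20 it was no longer the highest, with 13 against 22 for Fn14 KO 2 with Fn14 WT 1, and on autosomes alone that pair had 0 at this limit.

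The strongest gained regions lay at genes of varied function. The first, at chr7:3280254-3281406 and 8208 bp from Myadm (a membrane protein of myeloid and other cells), had −log10 p of 32.5 and 29.4 in Fn14 KO and no peak in Fn14 WT or the dLGN. A region in Uhrf1bp1, a lipid transfer protein, at chr17:27871761-27872261, had 29.9 and 23.4 with none elsewhere. Both were well above the limit in both Fn14 KO libraries and absent from all other lists. Next came P4ha3, a collagen prolyl hydroxylase subunit, at chr7:100295638-100296043, with 23.1 and 33.0 in Fn14 KO, and in the dLGN 6.75 in 1 PLX library and 7.14 in 1 control library. A region 2902 bp from Aldh3a1, an aldehyde dehydrogenase, had 36.2 and 22.6, and a region 49229 bp from Gm52796 had 42.9 and 22.6, both with no dLGN peak. The region in Ntng2, which encodes the synaptic adhesion protein netrin-G2, lay at chr2:29239303-29239764. It had 25.3 and 22.5 in Fn14 KO, and in the dLGN 5.64 in 1 of the 2 PLX libraries with 7.48 and 3.47 on control chow. Also among the strongest 10 were an intergenic region at chr16:5766573-5767194 (22.0 and 23.4), a region 390 bp from Dynlt1b, a dynein light chain (23.0 and 21.3), and a region in Cyth3, an Arf exchange factor (21.2 and 21.8). Of these 3, the first had 3.43 in 1 control library and the others no dLGN peak.

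Some gained regions were open in every dLGN library. The strongest lay 2610 bp from Nfkbia, at chr12:55495143-55495371, with −log10 p of 27.6 and 19.4 in Fn14 KO and a nearest Fn14 WT peak 2191 bp away. Its dLGN values were 24.0 and 26.97 on PLX chow, against 16.4 and 27.8 on control chow, so that the diets overlapped. A region in Camta1, a calmodulin-binding transcription activator of neurons, had 21.2 and 18.6 in Fn14 KO, and 6.44 and 6.19 on PLX chow against 13.7 and 9.45 on control chow. A region 4954 bp from Krt28, a hair follicle keratin, had 27.1 and 17.8 in Fn14 KO, and 24.4 and 22.6 on PLX chow against 37.5 and 17.3 on control chow. A region in Cyp2f2, a cytochrome P450 of the airway, had 18.8 and 17.1 in Fn14 KO, and 12.7 and 11.8 on PLX chow against 17.2 and 16.6 on control chow. The remaining one, at chr5:133795690-133795957 with no gene within 50 kb, had the same 18.8 and 17.1 in Fn14 KO, and 5.89 and 6.19 on PLX chow against 11.8 and 6.69 on control chow. PLX values lay below both control values at Camta1, at Cyp2f2 and at the intergenic region, and overlapped them at Nfkbia and Krt28. Over all 81497 regions the median −log10 p of listed regions was also lower on PLX chow, at 32.4 and 34.0, against 42.0 and 35.3 on control chow, so the direction at these sites was that of the libraries as a whole.

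**Figure D2:**
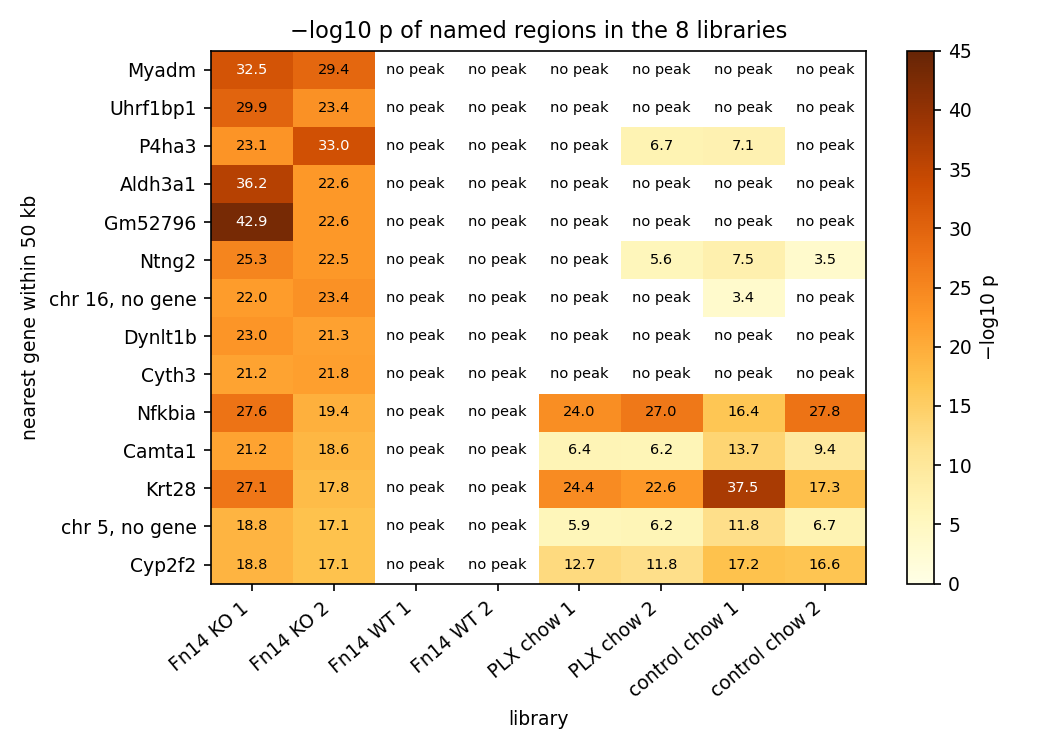
Authors' −log10 p (colour and printed value) in the Fn14 KO, Fn14 WT, PLX chow and control chow libraries (columns) for 9 of the 10 strongest gained regions and the 5 strongest with a peak in all 4 dLGN libraries, by nearest gene. All are empty in Fn14 WT because the rule requires it. Nfkbia and Krt28 carry peaks in all 4 dLGN libraries, while Myadm and Uhrf1bp1 carry none.

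The dLGN libraries were not used by the rule and give the state of the same sites in another experiment. The comparison with all 81497 regions still carries the rule. Gained regions lack any Fn14 WT peak by choice, while 92.8% of the 81497 had peaks in both Fn14 WT libraries. The part of this choice in the dLGN shares was not tested. Gained regions had a peak in 248 cases (20.1%) in PLX 1, 293 (23.7%) in PLX 2, 348 (28.2%) in control 1 and 281 (22.8%) in control 2. The mean was 23.7% ± 3.37 (SD, n = 4 libraries), against 76.5% ± 1.64 for all 81497 regions in the same libraries. Every dLGN library gave a lower share for gained regions than any gave for all regions. At −log10 p of at least 8 the shares of gained regions were 9.80% and 11.4% on PLX chow, and 14.3% and 10.6% on control chow, where those of all 81497 were 64.1% and 65.7% on PLX chow, and 69.6% and 66.3% on control chow. A peak in at least 1 dLGN library was found for 479 gained regions (38.8%), where the share of all 81497 was 82.9%. All 4 dLGN libraries had a peak at 136 gained regions (11.0%), where the share of all was 69.9%. The other 756 (61.2%) had none, and 151, 101 and 91 had peaks in 1, 2 and 3 libraries. Tissue, age and experiment differ together between sections and dLGN, and the Fn14 KO sections also differ from the dLGN mice in genotype. These cannot be told apart.

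Since a weak site can be missed in any library, the shares were also set side by side within classes of the lower Fn14 KO value. At 8 to 10 the mean dLGN share was 22.1% for gained regions, against 61.3% for other regions of that class. It was 24.0% against 64.4% at 10 to 12, 27.5% against 68.4% at 12 to 16, and 32.4% against 85.5% at 16 or more. The gap was present in every class. By the rule, the other regions of a class all had some Fn14 WT peak, and the classes do not match for this. The other sets defined by the same rule did not all share the low dLGN share. At least 1 dLGN peak was found for 81 of the 96 Fn14 WT regions (84.4%), 384 of 495 for Fn14 KO 1 with Fn14 WT 1 (77.6%), 62 of 84 for Fn14 KO 1 with Fn14 WT 2 (73.8%) and 85 of 119 for Fn14 KO 2 with Fn14 WT 1 (71.4%). The regions of Fn14 KO 2 with Fn14 WT 2, which share no genotype, had the lowest share, 100 of 357 (28.0%).

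**Figure D3:**
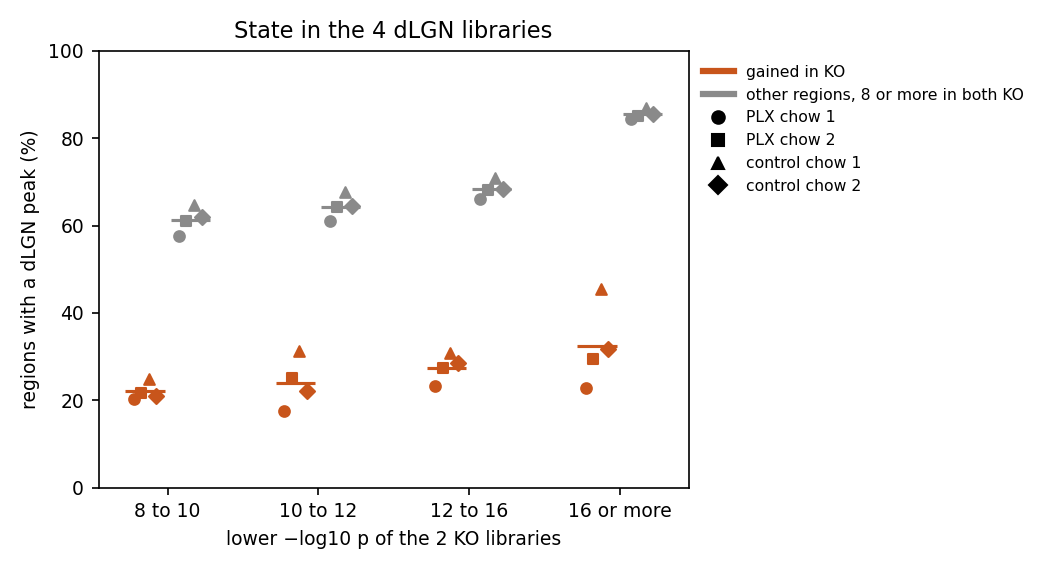
Percent of regions with a peak in each dLGN library (points, one shape per library; short lines are the means of the 4) by class of the lower Fn14 KO −log10 p, for gained regions (orange) and other regions of the class (grey). Means of gained regions lie at 22.1% to 32.4%, and those of other regions at 61.3% to 85.5%.

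The share did not differ between the diets beyond the spread between libraries. It averaged 21.9% ± 2.58 on PLX chow and 25.5% ± 3.84 on control chow (SD, n = 2 each), a difference of −3.56 percentage points (two-sided exact permutation test, p = 0.667, where 0.333 is the smallest this design allows). Over all 81497 regions the difference was −2.18 percentage points. Control 1 had the highest share of the 4, and control 2 lay between the PLX libraries. At single sites, 64 gained regions (5.18%) had a peak only on PLX chow and 119 (9.64%) only on control chow, where 1570 (1.93%) and 3180 (3.90%) of all 81497 did. Peaks in both PLX libraries and neither control were found at 8 gained regions (0.648%), and peaks in both controls and neither PLX library at 24 (1.94%). Over all regions these numbers were 251 (0.308%) and 840 (1.03%), so that control-only sites were the more frequent kind in both sets. Where a peak was present its median −log10 p was 7.57 and 7.92 on PLX chow, and 8.13 and 7.75 on control chow. At 37 gained regions (3.00%) every dLGN library exceeded the lower Fn14 KO value, as at 31677 (38.9%) of all regions.

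Gained regions lay mostly away from gene starts. Of the 1235, 641 (51.9%) were centred within a protein-coding gene, against 57.5% of all 81497, and 207 (16.8%) lay over 50 kb from any, against 17.7%. A gene end, start or finish, was within 1 kb for 58 (4.70%), against 15.8% of all but 4.92% of those at 8 to 10. Promoter windows were overlapped by 1.13%, against 14.3% of all and 2.79% at 8 to 10. The surroundings were richer in genes: the median number of genes within 500 kb was 11 for gained regions, against 8 for all and 7 at 8 to 10. It was 5 for Fn14 WT regions, 6 for Fn14 KO 1 with Fn14 WT 1 and 3 for Fn14 KO 2 with Fn14 WT 2.

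The chromosomes shared the gained regions unevenly. Chromosome 7 held 142, which is 3.61% of its regions at 8 or more, chromosome 5 held 133 (2.77%), chromosome 11 held 123 (2.60%), chromosome 4 held 109 (2.19%), chromosome 2 held 97 (1.51%) and chromosome 9 held 90 (2.12%). Together these 6 carried 694, or 56.2% of gained regions, against 35.7% of the 81497. Chromosome 10 held 30 (0.649%), chromosome X 8 (0.531%) and chromosome Y 0. The same 6 chromosomes held 20.8% of Fn14 WT regions, 33.5% for Fn14 KO 1 with Fn14 WT 1, 24.4% for Fn14 KO 2 with Fn14 WT 2, 34.5% for Fn14 KO 1 with Fn14 WT 2 and 21.0% for Fn14 KO 2 with Fn14 WT 1. They were picked for their counts of gained regions, so the contrast is a description. Across the 18 autosomes with promoter sequences, the percent gained and the median promoter GC had Pearson r = 0.52 and Spearman rho = 0.67. The same measure gave r = −0.22 for Fn14 WT regions, 0.16 for Fn14 KO 1 with Fn14 WT 1 and −0.47 for Fn14 KO 2 with Fn14 WT 2. It gave −0.043 for Fn14 KO 1 with Fn14 WT 2 and −0.075 for Fn14 KO 2 with Fn14 WT 1. By region, the nearest promoter window within 100 kb had a median GC of 54.3% for gained regions. That median was 54.7% for all 81497 and 53.3% for those at 8 to 10. The chromosomes come from the same libraries, and base composition of the regions themselves was not read. Its part in the count of gained regions was not tested.

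**Figure D4:**
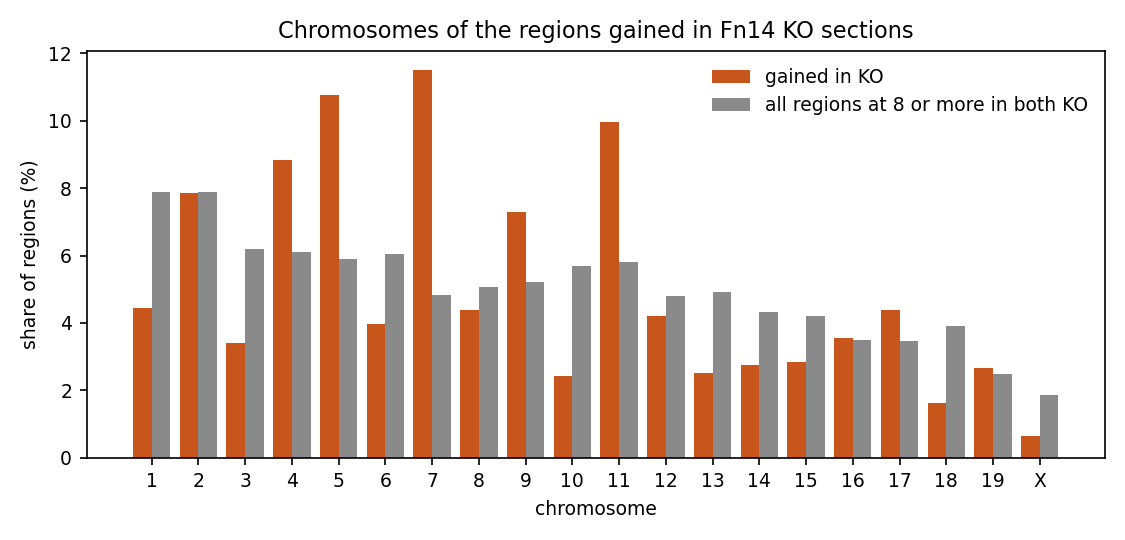
Share of all gained regions (orange bars) and of all regions at −log10 p of at least 8 in both Fn14 KO libraries (grey bars) on each chromosome, in percent from 0. Chromosome 7 holds 11.5% of gained regions and 4.82% of all, and chromosome 10 holds 2.43% and 5.68%.

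Chromosome 17 carries Tnfrsf12a, and its 54 gained regions lay closer to that gene than its other regions did. Within 5 Mb of the gene, 12 of 339 regions were gained (3.54%), at 5 to 10 Mb 9 of 288 (3.13%), at 10 to 20 Mb 16 of 588 (2.72%), at 20 to 40 Mb 11 of 621 (1.77%), and beyond 40 Mb 6 of 977 (0.614%). Those within 20 Mb numbered 37 of 1215 (3.05%), against 17 of 1598 on the rest of the chromosome (1.06%). Chromosome 7 as a whole had a share of 3.61%, so a share of gained regions this high also occurred elsewhere. Its share of Fn14 WT regions was 0.0729%. The gained region nearest to the gene was the Prss41 promoter region, 165895 bp away. Among the others within 5 Mb were regions in Hmga1, a chromatin architecture protein (15.1 and 18.0), Abca3, a lipid transporter (11.5 and 8.86), and Pacsin1, a neuronal endocytic adaptor (12.6 and 11.6), besides Uhrf1bp1. Chromosome 17 held 6 Fn14 WT regions, 4 within 20 Mb of the gene and 2 on the rest, too few to read a trend with distance. Within 5 Mb lay 2, that of Tnfrsf12a among them. They were 0.881% of the regions listed there at 8 or more in both Fn14 WT libraries, against 0.151% over all chromosomes. The share of Fn14 WT regions was 0.535% at 5 to 10 Mb, 0.270% at 10 to 20 Mb, 0.419% at 20 to 40 Mb and 0 beyond 40 Mb. The 4 mixed pairs each had 0 within 10 Mb, and their shares over all chromosomes were 0.126% to 0.668%. DNA around a targeted locus can stay that of the line in which it was made, and the labels do not give that line; its part in these counts was not tested. Leaving out the 20 Mb either side left 1198 gained regions.

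**Figure D5:**
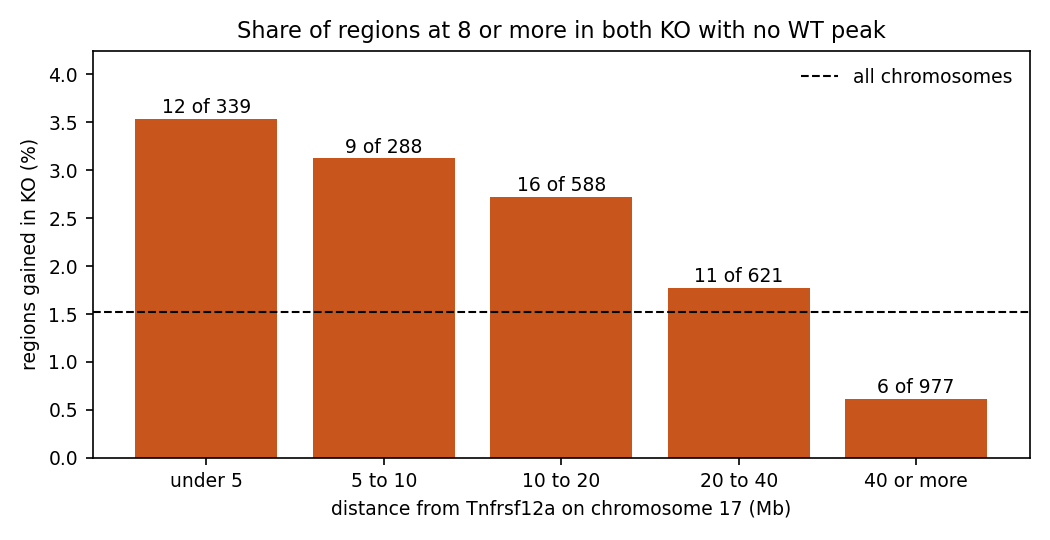
Gained regions on chromosome 17 as a percent of regions at −log10 p of at least 8 in both Fn14 KO libraries (bars from 0, with counts), by distance from Tnfrsf12a in Mb. The dashed line is the 1.52% over all chromosomes; the bars run from 3.54% within 5 Mb to 0.614% at 40 Mb or more.

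Lists of marker and pathway genes held few gained regions. Of the 73 genes in 10 lists, 65 had a region at −log10 p of at least 8 in all 4 section libraries, and each list had at least 2 such genes. Gained regions made up 6 of the 339 regions at 8 or more assigned to these genes (1.77%), near the 1.52% over all regions. In the list of TWEAK, TNF receptor and NF-kB genes, 3 of 71 regions were gained (4.23%). They were the Nfkbia region above, a region in Traf3 (11.0 and 9.21 in Fn14 KO, no dLGN peak), and a region 25166 bp from Map3k14, named after its values were seen. That region had 8.41 and 14.1 in Fn14 KO, 6.44 and 5.64 on PLX chow and 2.71 in 1 control library. The list of cortical and hippocampal excitatory neuron markers had 2 of 21, in Tbr1, a factor of deep-layer cortical neurons (10.1 and 13.04), and in Emx1, a dorsal forebrain homeobox factor (8.41 and 10.3). The oligodendrocyte list had 1 of 36, in the myelin gene Mog (10.7 and 9.11). None of these 3 had a dLGN peak. The nearest Fn14 WT peak lay 176 bp from the Tbr1 region, 3235 bp from the Emx1 region and 159 bp from the Mog region. The Tbr1 and Mog regions thus flank sites also open in Fn14 WT. No gained region was assigned to markers of microglia (of 20 regions), astrocytes (65), oligodendrocyte precursors (9), endothelial cells (10), thalamic neurons (35) or inhibitory neurons (17), or to activity-regulated genes (55). The only region of the Fn14 WT set at a listed gene was that of Tnfrsf12a.

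Most genes with a gained region had a single one. The 1028 gained regions within 50 kb of a gene were assigned to 908 genes, of which 822 had 1, 64 had 2 and 22 had 3 or more. These 22 were picked for their counts of gained regions, so the counts are description. Over all 81497 regions the share gained was 1.52%. Opcml, which encodes a cell adhesion protein of the IgLON family, had 6 of its 53 regions at 8 or more gained, with lower Fn14 KO values of 8.26 to 12.1. The splicing factor gene Rbfox1 had 5 of 55, with 9.47 to 14.4. With 4 each came Asic2, an acid-sensing ion channel (of 51), Caln1, a calcium-binding protein (of 14), Camta1 (of 33), Csmd2, a transmembrane protein with complement-control domains (of 26), Dab1, the adaptor of reelin signalling (of 62), Igsf21, a synaptic adhesion protein (of 22), and Rph3al, an effector of Rab27 in exocytosis (of 9). With 3 each came the synaptic scaffold genes Dlg2 (of 62) and Dlgap2 (of 30), the adhesion genes Ntm (of 42) and Clmp (of 14), Csmd1 (of 52), the semaphorin receptor Plxna4 (of 30), and Rptor of the mTORC1 complex (of 15). The other genes with 3 were Cpxm2 (of 10), Epop (of 10), Galnt17 (of 20), Med27 (of 15), Thsd4 (of 23) and Wscd2 (of 9). These 22 genes ran from 2330 bp (Epop) to 1973059 bp (Dlg2). Over all gained regions inside a gene, the length of that gene had a median of 109670 bp, against 107961 bp for all regions inside genes, 142083 bp for those with a lower Fn14 KO value of 8 to 10 and 148701 bp for those at 10 to 12.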

How the data were processed

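ATAC-seq peak lists of 8 libraries in 4 groups were deposited, 1 per sample, in narrowPeak form (mm10). As the deposited lists and labels record, the authors' pipeline called peaks on each library at p 0.01 with multimapping reads at 0, a cap of 300000 and filtering of listed regions; no source used here names the aligner or caller. The submitters' processing notes name deepTools 3.5.0. The deposited columns used are the fold ratio, the −log10 p and −log10 q of each peak, and the summit offset; the score is the authors' −log10 p times 10, capped at 1000, and was not used. No counts were given, so no count test or interval was possible.

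Peaks were merged with pandas 2.3.3 and numpy 2.4.6 under Python 3.11.15, and each region took the highest −log10 p of a library. Its centre was assigned to the nearest of 21900 protein-coding RefSeq genes within 50 kb; named genes follow a rule of rank, list or count: the 10 strongest, the 3 regions either side of the limit, the 5 strongest with a peak in all dLGN libraries and with none, up to 2 per list, genes with 3 or more, the nearest to Tnfrsf12a, and the promoters. Diets were compared by an exact permutation test (scipy 1.17.1). The merging and counting were tested on simulated peaks. Members and lists were chosen with earlier results of these data known. Chromosome 18 promoter sequences were not used here. A region among the strongest 10 regions is not reported here.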

Additional observations from a re-analysis of the deposited data

How the results depend on the processing

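The number of gained regions was 1235, and it moved with the limit, set as a value or as a rank, and with the libraries included. It was 4992 at a limit of 5, 212 at 12 and 13 at 20. It was 48 with the limit at rank 60000 of each list, and 13 on autosomes at a limit of 20. The last setting, autosomes alone and the limit at rank 100000 were chosen after seeing the data. Leaving out each section library in turn gave 3412 to 6671 regions: 4087 without Fn14 KO 1, 6671 without Fn14 KO 2, 3710 without Fn14 WT 1 and 3412 without Fn14 WT 2, since fewer libraries then have to meet the rule. The remaining settings gave 967 to 1762. The excess over the mean of the mixed pairs, 971, was 3277 at a limit of 5, 174 at 12 and 6 at 20. It was 25 with the limit at rank 60000, 596 at rank 100000 and 12.2 on autosomes at a limit of 20. It cannot be formed without 1 of the section libraries. The Fn14 KO pair was the highest of the 6 pairs in 11 of 12 settings, the exception being the limit of 20. The dLGN share of gained regions, 23.7%, was 28.5% at a limit of 12 and 39.6% with the limit at rank 60000. It was 27.6% with fixed windows round the summits and 11.5% when the dLGN peak itself had to reach 8. Without 1 library it ranged from 17.9% (without Fn14 KO 1) to 38.2% (without Fn14 WT 1). It stayed below that of all regions in the same 12 settings. The difference between diets of −3.56 percentage points was negative under every alternative, from −15.4 to −0.850. With the replicate number as a block it was again −3.56 (pairs −8.10 and 0.972, exact permutation p = 1), and the excess over the pairs that cross replicate numbers was 1134. The numbers are not known to pair animals. Deviations of libraries with the same number correlated at 0.119 in sections and −0.00546 in the dLGN, over 2 pairs each. In the counts by the rule, however, the split by replicate number held 852 regions, against 203 for the crossed split. A batch that follows the numbers was not tested. Depth is unknown, so a region missing from a list was not detectable there rather than shown closed.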
